A study of Mus musculus with 6 samples.

Results

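Nuclear receptors are transcription factors that bind short DNA motifs, and most of them are switched by a small lipid-soluble ligand such as a fatty acid, a bile acid, an oxysterol, a retinoid, a thyroid hormone or a steroid. In the liver many of them bind DNA together with a retinoid X receptor (RXR), recruit coactivators or corepressors, and set the rates of bile acid, lipid, drug and glucose handling. HNF4A (Hnf4a), which needs no RXR partner, is a main regulator of the hepatocyte programme.

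The receptors described here are the gene entries whose symbol equals one of 37 listed mouse nuclear receptor symbols, and all 37 were found, each as 1 of 24489 gene entries. They were measured by sequencing polyadenylated RNA from liver lobes of mice aged 10 postnatal days. There were 3 libraries from Jag1Ndr/Ndr pups, homozygous for the Nodder allele of Jag1, and 3 from Jag1+/+ pups, all of the strain background C3H/C57bl6J and untreated. Jag1 encodes a ligand of Notch receptors, the Nodder allele is a missense mutation carried in every cell, and homozygotes are used to model Alagille syndrome, a disease with too few bile ducts and impaired bile flow. The labels do not say that each library comes from a separate animal, so the p-values measure the spread between these libraries, part of which may be technical.

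Depth ranged from 12992592 to 59653111 reads in the Jag1Ndr/Ndr libraries and from 17548954 to 40499166 in the Jag1+/+ libraries. Levels are CPM, reads relative to the TMM-scaled library size, and 3 reads, the limit that a count of 0 allows, were worth between 0.0421 and 0.266 CPM. Jag1Ndr/Ndr replicate 1, the shallowest, stood apart from replicates 2 and 3 on the second principal component (46.7, against -43.6 and -19.9, while Jag1+/+ libraries lay between 2.14 and 7.35). Reads of Xist and of Y-linked genes marked Jag1Ndr/Ndr replicate 1 and Jag1+/+ replicates 2 and 3 as male and the others as female. Jag1 itself measured 4.84 ± 1.59 CPM in Jag1Ndr/Ndr and 5.96 ± 0.807 CPM in Jag1+/+ livers (SD, n = 3 each). The mutation changes the protein and may leave the RNA level as it was, so this does not check the labels. All 8 hepatocyte markers were detected in each library, and their sum was 102196 to 182688 CPM in Jag1Ndr/Ndr and 217134 to 223849 CPM in Jag1+/+ livers. Most of this sum was Alb, at 150001, 86174 and 102119 CPM in Jag1Ndr/Ndr replicates 1, 2 and 3. Alb did not pass (edgeR adjusted p = 0.214). Of the 8 log2 fold changes 6 were negative and 2 positive, those of Tat (0.95) and Hnf4a (0.08), so the sum does not describe the markers one by one. The 7 neutrophil markers summed to 1036 to 2301 CPM in Jag1Ndr/Ndr and 611 to 737 CPM in Jag1+/+ livers, and the 8 macrophage markers summed to 1387 to 2326 CPM in Jag1Ndr/Ndr and 647 to 1141 CPM in Jag1+/+ livers. Of the macrophage sum, Marco alone gave 945, 386 and 343 CPM in Jag1Ndr/Ndr replicates 1, 2 and 3. The sums overlapped for cholangiocytes (52.2 to 137 CPM in Jag1Ndr/Ndr, 94.4 to 137 in Jag1+/+), endothelial cells (450 to 490, 476 to 531) and erythroid cells (289 to 349, 235 to 419). B lymphoid sums were lower, at 12.9 to 39.0 against 42.9 to 62.3 CPM. No marker was at 0 in every library. Their part in the results on receptors was not tested, and in whole liver fewer cells of a type and less RNA per cell cannot be told apart.

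The comparison asked which receptor transcripts differed between Jag1Ndr/Ndr and Jag1+/+ livers. The retinoic acid receptor Rarb, the fatty acid receptor Ppara and the estrogen receptor Esr1 were lower in Jag1Ndr/Ndr livers, and the immediate early orphan receptor Nr4a1 was higher. The 2 most abundant receptors, Hnf4a and Rxra, stood close to their Jag1+/+ levels. Of the 37 receptors 35 had enough reads to be tested; Vdr and Nr4a3 did not. The 4 that passed make up 11.4% of those tested, where 7.63% of all 13819 genes tested passed (quasi-likelihood test of edgeR, Benjamini-Hochberg adjustment across all of them, adjusted p under 0.05). Split by direction, 3 fell (8.57%, against a background of 2.90%) and 1 rose (2.86%, against 4.73%). The 11 receptors with an unadjusted p under 0.05 were 31.4% of those tested, and 22.5% of all genes reached it. The median log2 fold change was -0.12 over the 35 receptors and 0.0041 over all genes, where log2 fold changes are Jag1Ndr/Ndr over Jag1+/+. The libraries of the genotypes did not overlap for 13 receptors, 10 of them lower and 3 higher in Jag1Ndr/Ndr livers (37.1%, against 29.0% of all genes). Leaving out Jag1+/+ replicate 1, 2 or 3 left 1 that fell, leaving out Jag1Ndr/Ndr replicate 2 gave 4, and leaving out Jag1Ndr/Ndr replicate 3 gave 2. Leaving out Jag1Ndr/Ndr replicate 3, or Jag1+/+ replicate 2 or 3, left 0 that rose (edgeR; the unadjusted p of Nr4a1 in the full fit was 0.000756).

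**Figure D1:**
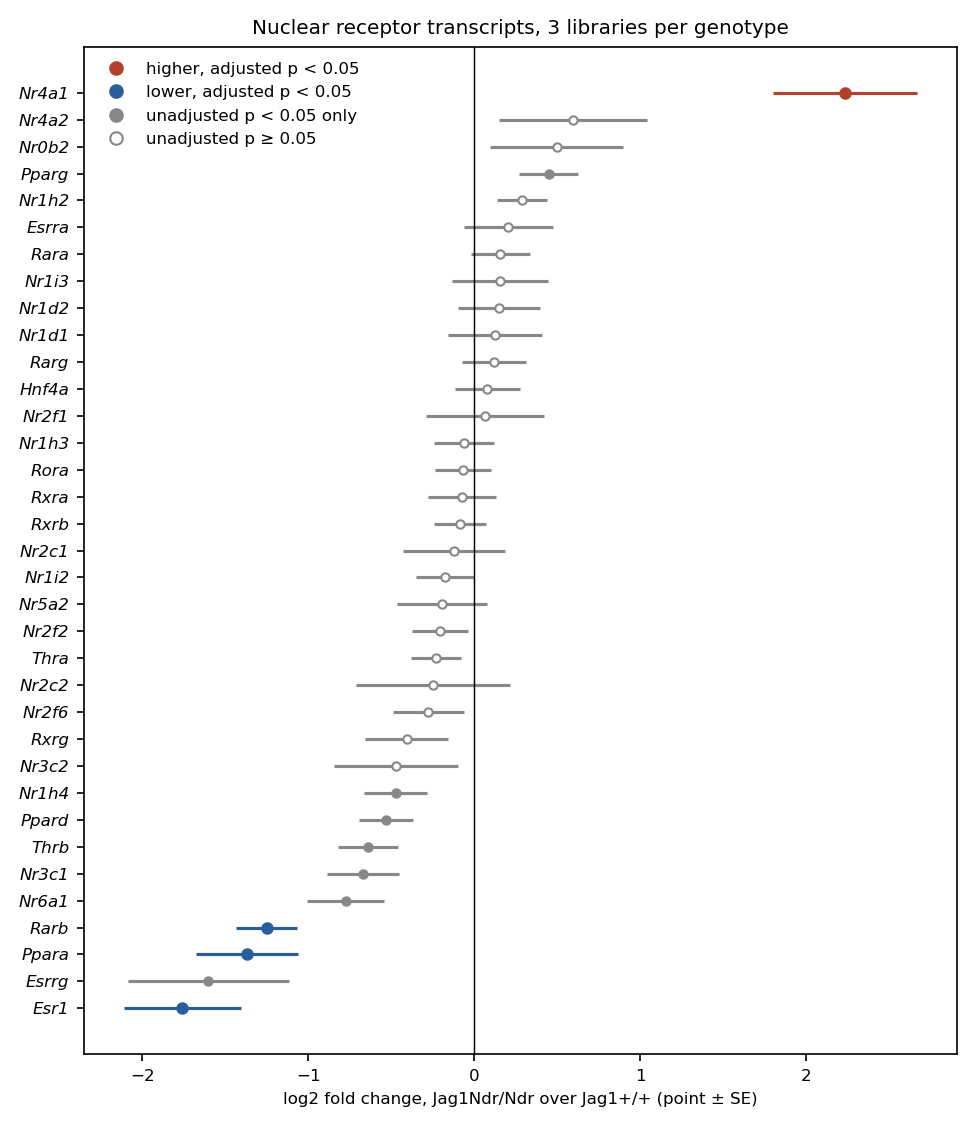
Log2 fold change of each of the 35 tested receptors, Jag1Ndr/Ndr over Jag1+/+ (points, with bars of 1 SE, 3 libraries per genotype); colour marks the 4 past the adjusted threshold and filled grey points those with an unadjusted p under 0.05. Nr4a1 lies at 2.24, and Rarb, Ppara and Esr1 at -1.25, -1.37 and -1.76, while most receptors lie between -0.5 and 0.5.

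To compare levels between receptors, deposited RPKM (reads scaled by transcript length and library size) were rescaled to the same TMM scale. Hnf4a was the most abundant receptor in all 6 libraries, at 106 ± 14.9 RPKM in Jag1Ndr/Ndr and 99.99 ± 16.1 RPKM in Jag1+/+ livers. Rxra followed on average, at 60.6 ± 10.1 RPKM in Jag1Ndr/Ndr and 64.5 ± 11.5 RPKM in Jag1+/+ livers, and its libraries lay below those of Hnf4a in both genotypes. Below these the order held many near ties, and neighbours in the order overlapped in 35 of 36 cases in Jag1Ndr/Ndr and in 28 of 36 cases in Jag1+/+ livers.

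Ppara ranked 14th, 7th and 10th among the 37 receptors in Jag1Ndr/Ndr replicates 1, 2 and 3, and 5th, 4th and 3rd in Jag1+/+ replicates 1, 2 and 3. Within a library such a rank does not depend on how libraries are scaled to each other. Nr4a1 ranked 17th, 22nd and 19th in the Jag1Ndr/Ndr libraries and 29th, 32nd and 33rd in the Jag1+/+ libraries, and Esr1 31st, 29th and 30th, against 24th, 22nd and 20th. These were the receptors whose place moved most, with Rarb (26th, 28th and 27th, against 20th, 21st and 23rd). Each of them was called higher or lower in these same libraries, so the moves largely follow from their own values. The order of the other abundant receptors, Nr1i3, Nr1h3, Nr1h4, Nr2f6, Nr0b2, Nr1i2 and Nr1h2, stayed within the top 10 in each library.

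**Figure D2:**
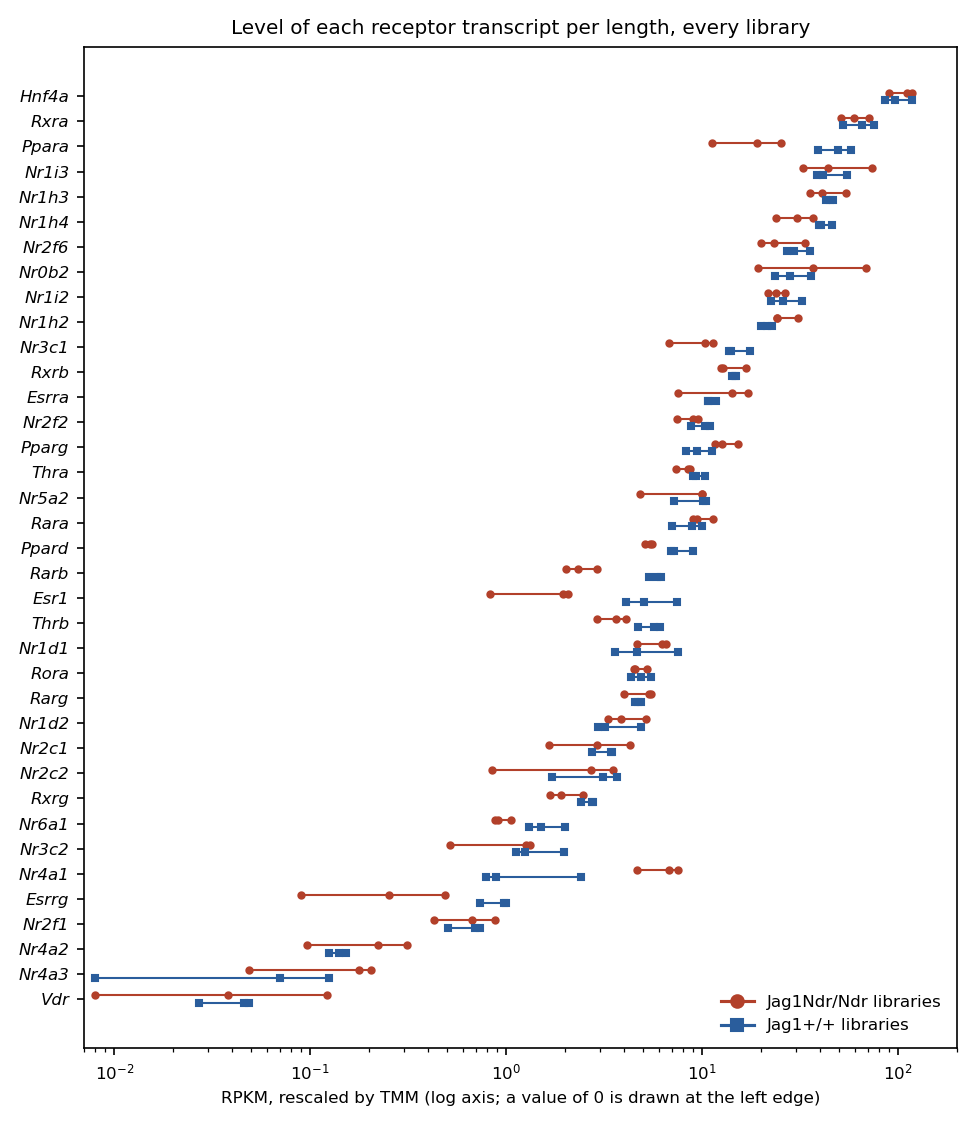
Level of each of the 37 receptors in RPKM rescaled by TMM, on a log axis, with a point for each library and a line over the range of each genotype (circles above, Jag1Ndr/Ndr; squares below, Jag1+/+; a value of 0 is drawn at the left edge). Hnf4a and Rxra lead, Vdr, Nr4a3 and Nr4a2 close the order below 0.4 RPKM, and the ranges of Rarb, Ppara, Esr1 and Nr4a1 lie apart between the genotypes.

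The peroxisome proliferator-activated receptors bind fatty acids and their derivatives with an RXR partner; PPARA drives hepatic fatty acid oxidation in fasting, PPARG drives fat storage and adipocyte differentiation, and PPARD acts in many tissues. Ppara (chromosome 15, positions 85734910 to 85806851 of GRCm38) measured 79.0, 183 and 136 CPM in Jag1Ndr/Ndr replicates 1, 2 and 3, and 275, 347 and 408 CPM in Jag1+/+ replicates 1, 2 and 3. All 3 Jag1Ndr/Ndr libraries lay below all 3 Jag1+/+ libraries, with replicate 1 lowest. Ppara fell 2.58-fold (log2 fold change -1.37 ± 0.31 SE, 95% interval -2.07 to -0.66, edgeR adjusted p = 0.0349). In males it stood at 79.0 CPM in the Jag1Ndr/Ndr library and at 347 and 408 CPM in the Jag1+/+ libraries, and in females at 183 and 136 against 275 CPM. The call was lost on leaving out Jag1Ndr/Ndr replicate 3 (edgeR adjusted p = 0.0734) or a Jag1+/+ library (0.0710, 0.103 and 0.120 for replicates 1, 2 and 3), when sex was a term of the fit (0.0732), with library totals alone (0.113) or on deposited RPKM values (limma, 0.173).

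Ppard measured 17.3, 17.1 and 15.8 CPM in Jag1Ndr/Ndr livers and 22.5, 28.1 and 21.9 CPM in Jag1+/+ livers. Its log2 fold change of -0.53 ± 0.16 did not pass (edgeR adjusted p = 0.0875), although the genotypes did not overlap. Pparg ran the other way, with 27.6, 21.9 and 20.9 CPM in Jag1Ndr/Ndr and 17.1, 19.3 and 14.96 CPM in Jag1+/+ livers. Its log2 fold change of 0.45 ± 0.18 did not pass either (edgeR adjusted p = 0.178). The ratio of Ppara to Pparg within a library, in RPKM, was 0.737, 1.99 and 1.62 in Jag1Ndr/Ndr livers, against 4.14, 4.39 and 7.01 in Jag1+/+ livers. Since Ppara was lower and Pparg higher in each Jag1Ndr/Ndr library, the separation of this ratio follows from their own values.

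Of 16 listed PPARA target genes, all tested, 2 rose and 1 fell, with a median log2 fold change of 0.03. These are 12.5% and 6.25%, against 4.73% and 2.90% of all genes, and each gene weighs heavily in so short a list. Acsl1, an acyl-CoA synthetase, fell 2.24-fold, while Angptl4, which inhibits lipoprotein lipase, rose 2.35-fold and the thioesterase Acot1 rose 2.49-fold (edgeR adjusted p = 0.0143, 0.0318 and 0.0455). Carnitine palmitoyltransferase Cpt1a stood at -0.53 ± 0.23 on the log2 scale. Microsomal Cyp4a10 and Cyp4a14 stood at 1.69 ± 0.60 and 0.81 ± 0.33. None of these 3 passed (edgeR adjusted p between 0.131 and 0.221), and the list as a whole had as many positive as negative values, 8 each. Acsl1 lost its call without Jag1+/+ replicate 2 or 3 (edgeR adjusted p = 0.0735 and 0.0782) and on deposited RPKM values. Angptl4 lost it without any Jag1+/+ library or Jag1Ndr/Ndr replicate 1 or 2 (edgeR adjusted p between 0.0567 and 0.133), when sex was a term and with quality weights, and Acot1 without any single library (0.0567 to 0.194), when sex was a term, with library totals alone and on deposited RPKM values.

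Retinoic acid receptors bind all-trans retinoic acid, made from the vitamin A that hepatic stellate cells store, and work as dimers with an RXR. Rarb is itself a classical retinoic acid target, through a response element in its promoter. Rarb (chromosome 14, positions 16430839 to 17082331) measured 6.29, 6.01 and 8.05 CPM in Jag1Ndr/Ndr replicates 1, 2 and 3, and 16.04, 15.1 and 17.2 CPM in Jag1+/+ replicates 1, 2 and 3. The libraries of each genotype lay close together and the genotypes far apart. Rarb fell 2.38-fold (log2 fold change -1.25 ± 0.18, 95% interval -1.67 to -0.83, edgeR adjusted p = 0.00836). It kept its call in all 6 fits that left out a library (edgeR adjusted p between 0.0131 and 0.0435) and in the fit with a term for sex (0.0244), and lost it on deposited RPKM values (pseudocounts 1 and 0.1; limma adjusted p = 0.310 and 0.280). In males Rarb stood at 6.29 CPM in Jag1Ndr/Ndr and at 15.1 and 17.2 CPM in Jag1+/+ livers, and in females at 6.01 and 8.05 against 16.04 CPM. The 7 stellate cell and portal fibroblast markers summed to 459 to 809 CPM in Jag1Ndr/Ndr and 730 to 811 CPM in Jag1+/+ livers, and their log2 fold changes had both signs, 4 positive and 3 negative. Reln passed and was lower (-0.80 ± 0.18, edgeR adjusted p = 0.0361), while Lrat (-0.76), Des (0.83) and Col1a1 (0.63) did not overlap between genotypes but did not pass. In the GENCODE annotation 34.1% of the exonic bases of Rarb overlap exons of Top2b on the other strand, and the kit does not mark the strand. Top2b, a topoisomerase, measured 39.2, 57.9 and 53.1 CPM in Jag1Ndr/Ndr and 61.3, 57.2 and 63.0 CPM in Jag1+/+ livers (log2 fold change -0.27 ± 0.17, edgeR adjusted p = 0.412).

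The RefSeq promoter window of Rarb, 250 bases before to 50 after 1 of its start sites (GRCm38.p6, chr14:16575427-16575726, minus strand), is shown because it holds the retinoic acid response element through which the gene answers its own ligand. Capitals mark the match to GGTTCA and AGTTCA with any 5 bases between them, a direct repeat, which begins 53 bases before the start site on the strand of the gene.
Rarb: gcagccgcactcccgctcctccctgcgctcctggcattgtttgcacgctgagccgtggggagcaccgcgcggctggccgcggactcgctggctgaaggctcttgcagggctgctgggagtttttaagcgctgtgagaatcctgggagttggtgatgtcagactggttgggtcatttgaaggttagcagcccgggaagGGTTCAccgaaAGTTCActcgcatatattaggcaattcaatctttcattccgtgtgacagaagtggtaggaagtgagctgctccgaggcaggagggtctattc
Searched on both strands, this motif was found in 2 of 32851 promoter windows of the table and in no other window of a listed receptor. A window was found for 35 of the 37 receptors (54 windows), not for Nr3c1 and Thra. The single half-site AGGTCA occurred in 20.4% of the receptors' windows and in 16.3% of all windows.

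Rara and Rarg, the other retinoic acid receptors, did not pass the test. Rara measured 31.4, 26.2 and 26.2 CPM in Jag1Ndr/Ndr and 20.0, 25.8 and 29.0 CPM in Jag1+/+ livers, with overlapping genotypes (log2 fold change 0.16 ± 0.18, 95% interval -0.25 to 0.57, edgeR adjusted p = 0.675). Rarg averaged 12.5 ± 2.56 CPM in Jag1Ndr/Ndr and 11.6 ± 0.408 CPM in Jag1+/+ livers (log2 fold change 0.12 ± 0.19, and -0.03 with quality weights). The ratio of Rarb to Rara in RPKM was 0.204, 0.225 and 0.309 in Jag1Ndr/Ndr libraries and 0.878, 0.602 and 0.588 in Jag1+/+ libraries. As Rarb was lower and Rara overlapped, the separation of this ratio largely follows from Rarb. Of the 6 listed retinoic acid target genes 4 could be tested, and 1, Cyp26b1, passed (25.0%, against 7.63% of all genes). An unadjusted p under 0.05 by edgeR was reached by 3 (75.0%, against 22.5% of all genes). Cyp26b1, which breaks retinoic acid down, measured 0.266, 0.224 and 0.373 CPM in Jag1Ndr/Ndr livers, against 4.75, 9.90 and 8.42 CPM in Jag1+/+ livers (edgeR adjusted p = 0.00140). Its paralog Cyp26a1 was too sparse for the test, at 0 to 0.168 CPM in Jag1Ndr/Ndr and 0.232 to 0.519 CPM in Jag1+/+ livers. Dhrs3, which reduces retinaldehyde, stood at -0.52 ± 0.18 and transglutaminase Tgm2 at 0.48 ± 0.18 on the log2 scale, neither past the threshold (edgeR adjusted p = 0.120 and 0.150).

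The RXRs, the common partners of the PPARs, RARs, LXRs, FXR, CAR, PXR and thyroid hormone receptors, did not differ detectably. Rxra measured 304, 252 and 360 CPM in Jag1Ndr/Ndr livers and 271, 320 and 371 CPM in Jag1+/+ livers, so that the genotypes overlapped throughout. Its log2 fold change was -0.07 ± 0.20 with a 95% interval of -0.54 to 0.40, and it turned to 0.04 with library totals alone. Rxrb averaged 30.9 ± 5.24 CPM in Jag1Ndr/Ndr and 32.7 ± 0.797 CPM in Jag1+/+ livers (log2 fold change -0.09 ± 0.16, and 0.01 with library totals alone). Rxrg was scarce, with 3.22 ± 0.724 CPM in Jag1Ndr/Ndr and 4.25 ± 0.324 CPM in Jag1+/+ livers (log2 fold change -0.41 ± 0.25). The RPKM ratio of Ppara to Rxra was 0.190, 0.493 and 0.267 in Jag1Ndr/Ndr libraries, against 0.743, 0.756 and 0.766 in Jag1+/+ libraries. In Jag1+/+ livers this ratio hardly varied, while the Jag1Ndr/Ndr libraries spread widely below it. As Ppara was lower and Rxra overlapped, the separation of this ratio largely follows from Ppara.

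**Figure D3:**
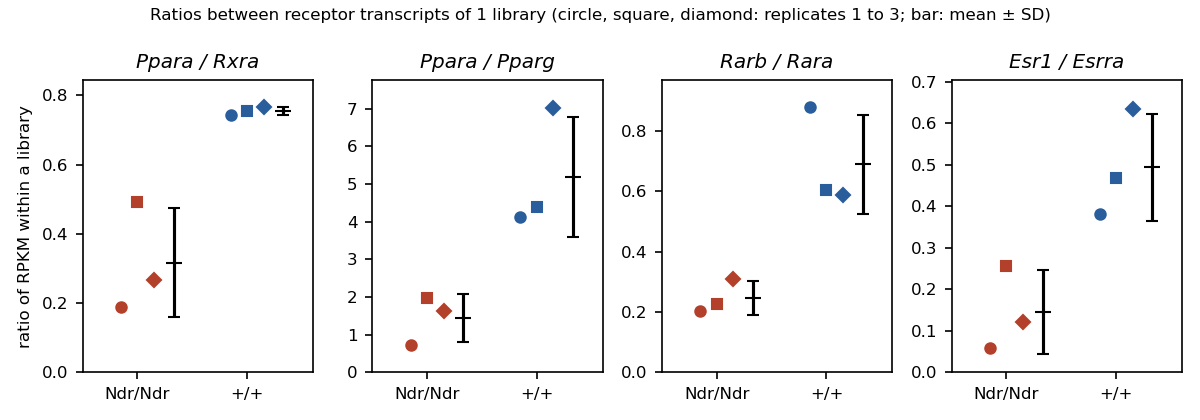
Ratios of RPKM between receptors of the same library, which do not depend on scaling between libraries; symbols are replicates 1 to 3 and bars are the mean ± SD of 3 libraries, with Jag1Ndr/Ndr on the left of each panel. Ppara to Rxra averaged 0.317 ± 0.158 in Jag1Ndr/Ndr and 0.755 ± 0.0114 in Jag1+/+ libraries, and the other 3 ratios were lower without overlap as well. Each numerator is a receptor called lower in these same libraries, so the separation largely follows from the numerators' own values.

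Among the steroid receptors, Esr1 encodes estrogen receptor alpha, the main estrogen receptor of liver, and Esrra and Esrrg encode orphan relatives that bind no estrogen and act on mitochondrial genes. Esr1 (chromosome 10, positions 4611989 to 5005633) measured 3.46, 8.22 and 8.59 CPM in Jag1Ndr/Ndr replicates 1, 2 and 3, and 17.3, 21.1 and 31.5 CPM in Jag1+/+ replicates 1, 2 and 3. All 3 Jag1Ndr/Ndr libraries lay below all 3 Jag1+/+ libraries, with Jag1Ndr/Ndr replicate 1 lowest and Jag1+/+ replicate 3 highest. Esr1 fell 3.38-fold, the largest fall among the receptors that passed (log2 fold change -1.76 ± 0.35, 95% interval -2.57 to -0.95, edgeR adjusted p = 0.0232). In males it stood at 3.46 CPM in Jag1Ndr/Ndr and at 21.1 and 31.5 CPM in Jag1+/+ livers, and in females at 8.22 and 8.59 against 17.3 CPM. Esr1 missed the threshold without Jag1+/+ replicate 1, 2 or 3 (edgeR adjusted p = 0.0525, 0.0631 and 0.0789), when sex was a term (0.0654), with library totals alone (0.0678) and on deposited RPKM values (limma, 0.181).

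Esrrg followed the same direction at a lower level, with 0.443, 2.57 and 1.23 CPM in Jag1Ndr/Ndr livers, against 5.21, 3.83 and 5.09 CPM in Jag1+/+ livers. These rest on 5 reads in Jag1Ndr/Ndr replicate 1 and 183 in replicate 2, and the log2 fold change of -1.60 ± 0.48 did not pass by edgeR (adjusted p = 0.0863), though it did by DESeq2 (0.00787) and with quality weights (limma, 0.0468). Leaving out Jag1Ndr/Ndr replicate 2 moved it to -2.40 and past the threshold (edgeR adjusted p = 0.0163). Esrra measured 30.1, 16.2 and 36.1 CPM in Jag1Ndr/Ndr and 22.9, 22.9 and 25.2 CPM in Jag1+/+ livers, overlapping (log2 fold change 0.21 ± 0.27, and -0.04 without Jag1Ndr/Ndr replicate 3). The Esr1 to Esrra ratio in RPKM was 0.0582, 0.257 and 0.121 in Jag1Ndr/Ndr libraries and 0.382, 0.467 and 0.635 in Jag1+/+ libraries. As Esr1 was lower and Esrra overlapped, the separation of this ratio largely follows from Esr1.

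The glucocorticoid receptor Nr3c1, which cortisol-like hormones activate, measured 41.5, 64.5 and 69.4 CPM in Jag1Ndr/Ndr livers, against 87.0, 84.2 and 108 CPM in Jag1+/+ livers. The genotypes did not overlap, but the log2 fold change of -0.67 ± 0.22 did not pass (edgeR adjusted p = 0.105; 0.0419 by DESeq2). The mineralocorticoid receptor Nr3c2, which answers aldosterone, was scarce and overlapped, with 4.09 ± 1.78 CPM in Jag1Ndr/Ndr and 5.78 ± 1.82 CPM in Jag1+/+ livers. Of 9 listed glucocorticoid target genes 1 passed: Fkbp5, a chaperone that holds the receptor inactive, fell 2.36-fold to 56.5 ± 14.2 CPM in Jag1Ndr/Ndr livers, against 133 ± 26.3 CPM in Jag1+/+ livers (edgeR adjusted p = 0.0183). That is 11.1% of the list, where 7.63% of all genes passed. An unadjusted p under 0.05 by edgeR was reached by 6 (66.7%, against 22.5% of all genes). Tsc22d3, which encodes the glucocorticoid-induced leucine zipper, stood at -1.02 ± 0.34. Per1, Dusp1, Zbtb16 and Mt2 stood between 1.10 and 1.80 on the log2 scale, and none of these 5 passed (edgeR adjusted p between 0.0913 and 0.151). The list thus held values of both signs, 6 positive and 3 negative, with a median of 0.95. Fkbp5 lost its call without Jag1+/+ replicate 1 or 2 (edgeR adjusted p = 0.0616 and 0.0801), when sex was a term (0.0534) and on deposited RPKM values.

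The NR4A receptors are orphan receptors and immediate early genes, transcribed soon after a growth factor, cytokine or stress signal. Nr4a1 (chromosome 15, positions 101253902 to 101274795) measured 16.3, 11.2 and 18.0 CPM in Jag1Ndr/Ndr replicates 1, 2 and 3, and 5.85, 2.14 and 1.91 CPM in Jag1+/+ replicates 1, 2 and 3. Each Jag1Ndr/Ndr library stood above each Jag1+/+ library, and Jag1+/+ replicate 1 stood above the other two. Nr4a1 rose 4.71-fold, the largest change among the receptors (log2 fold change 2.24 ± 0.43, 95% interval 1.24 to 3.23, edgeR adjusted p = 0.0203). In males it measured 16.3 CPM in the Jag1Ndr/Ndr library and 2.14 and 1.91 CPM in the Jag1+/+ libraries, and in females 11.2 and 18.0 against 5.85 CPM. It kept its call under each other scaling, filter and unit tried, with adjusted p-values of 0.0334 when sex was a term (edgeR) and 0.0102 on deposited RPKM values (limma, pseudocount 1). It missed the threshold without Jag1Ndr/Ndr replicate 3 (edgeR adjusted p = 0.0516) and without Jag1+/+ replicates 2 and 3 (0.0871 and 0.0738).

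The RefSeq promoter window of Nr4a1 (GRCm38.p6, chr15:101266596-101266895, plus strand) is shown because immediate early transcription of this gene is known to work through AP-1-like elements near its start site. Capitals mark the matches to TGCGTCA.
Nr4a1: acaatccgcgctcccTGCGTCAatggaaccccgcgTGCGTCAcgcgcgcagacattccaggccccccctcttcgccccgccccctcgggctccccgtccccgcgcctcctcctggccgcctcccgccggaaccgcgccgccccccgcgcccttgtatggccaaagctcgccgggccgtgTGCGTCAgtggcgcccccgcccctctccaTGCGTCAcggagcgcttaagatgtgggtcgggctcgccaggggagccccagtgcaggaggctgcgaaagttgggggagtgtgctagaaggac
The 4 copies begin 235, 215, 71 and 42 bases before the start site, on the strand of the gene, and do not overlap. Searched on both strands, TGCGTCA occurred at least once in 2.12% of all 32851 windows, in no window of another listed receptor, and 4 or more times in 1 window, that of Nr4a1. The related motif TGACGT occurred 3 times in the window of Nr4a3 and in 7.51% of all windows.

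The other NR4A receptors were near the limit of detection. Nr4a2 averaged 0.579 ± 0.296 CPM in Jag1Ndr/Ndr and 0.394 ± 0.0408 CPM in Jag1+/+ livers, from between 3 and 44 reads per library (log2 fold change 0.60 ± 0.44, edgeR adjusted p = 0.496). Nr4a3 had 1, 27 and 6 reads in Jag1Ndr/Ndr replicates 1, 2 and 3, and 0, 7 and 5 reads in Jag1+/+ replicates 1, 2 and 3, and was left out of the test. At this depth a difference in Nr4a3 was not detectable.

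**Figure D4:**
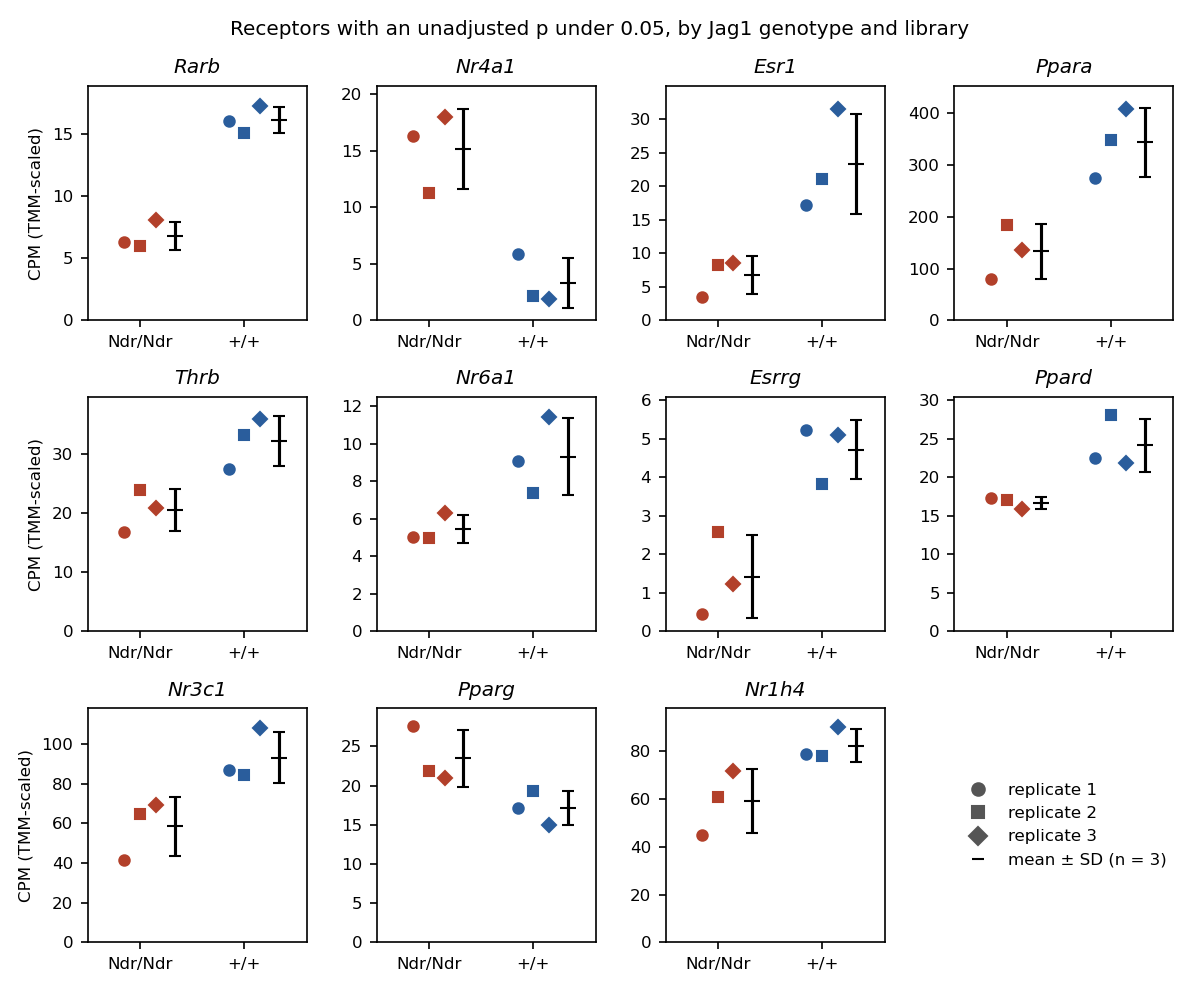
CPM in every library for the 11 receptors with an unadjusted p under 0.05, Jag1Ndr/Ndr on the left and Jag1+/+ on the right of each panel, with symbols for replicates 1 to 3 and black bars for the mean ± SD of 3 libraries; axes start at 0. In all 11 the libraries of the genotypes lie apart, 9 lower and 2 higher in Jag1Ndr/Ndr livers, and 4 of them (Rarb, Nr4a1, Esr1, Ppara) passed the adjusted threshold. The 11 were chosen by p in these same libraries, so that their lying apart largely follows from the choice. Of all receptors tested 37.1% lay apart, against 29.0% of all genes.

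The bile acid receptor FXR (Nr1h4) senses bile acids, induces their export and, through the small heterodimer partner SHP (Nr0b2), which lacks a DNA-binding domain, shuts down their synthesis; LRH-1 (Nr5a2) activates the synthesis genes that SHP silences. Nr1h4 measured 45.0, 60.7 and 71.6 CPM in Jag1Ndr/Ndr livers, against 78.6, 77.7 and 90.1 CPM in Jag1+/+ livers. The genotypes did not overlap, and the log2 fold change of -0.47 ± 0.19 did not pass (edgeR adjusted p = 0.185). Nr0b2 spread widely in Jag1Ndr/Ndr livers, at 74.8, 40.3 and 20.7 CPM in replicates 1, 2 and 3, against 30.8, 39.2 and 25.9 CPM in Jag1+/+ livers. Its log2 fold change of 0.50 ± 0.40 rested on Jag1Ndr/Ndr replicate 1, without which it was -0.06, and it did not pass (edgeR adjusted p = 0.538). Nr5a2 measured 17.3, 35.1 and 33.9 CPM in Jag1Ndr/Ndr and 26.2, 35.8 and 37.1 CPM in Jag1+/+ livers (log2 fold change -0.19 ± 0.27, edgeR adjusted p = 0.744), and stood at 0.05 without Jag1Ndr/Ndr replicate 1.

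Among 7 listed FXR target genes, 6 could be tested and 2 rose (33.3%, against 4.73% of all genes). An unadjusted p under 0.05 by edgeR was reached by 4 (66.7%, against 22.5% of all genes). Slc51a had 0 reads in each library and was not tested. Slc51b, a subunit of the bile acid exporter of the basolateral membrane, measured 19.9, 12.2 and 10.1 CPM in Jag1Ndr/Ndr livers, against 5.15, 4.58 and 5.06 CPM in Jag1+/+ livers (2.84-fold, edgeR adjusted p = 0.0151). Abcb4, the phospholipid exporter of the canalicular membrane, rose 2.35-fold (edgeR adjusted p = 0.0122). The bile salt pump Abcb11 measured 609, 582 and 525 CPM in Jag1Ndr/Ndr livers, against 367, 464 and 439 CPM in Jag1+/+ livers, apart but not past the threshold (log2 fold change 0.43 ± 0.18, edgeR adjusted p = 0.193). Fgfr4 lay apart in the other direction, also without passing (log2 fold change -0.42 ± 0.17, edgeR adjusted p = 0.174). Slc27a5 (-0.24) and Fetub (0.17) overlapped between genotypes. Both risen targets lost their calls without any one Jag1+/+ library (edgeR adjusted p between 0.0568 and 0.0808).

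The liver X receptors bind oxysterols and induce sterol export and lipid synthesis. Nr1h3, the form prevailing in liver, measured 92.2, 60.6 and 68.5 CPM in Jag1Ndr/Ndr livers and 73.4, 76.2 and 80.6 CPM in Jag1+/+ livers. The genotypes overlapped, with a log2 fold change of -0.06 ± 0.18 (95% interval -0.47 to 0.35), which turned to 0.03 with library totals alone. Nr1h2, the widely expressed form, measured 60.01, 47.6 and 46.4 CPM in Jag1Ndr/Ndr livers, against 42.3, 44.2 and 39.3 CPM in Jag1+/+ livers (log2 fold change 0.29 ± 0.15, edgeR adjusted p = 0.312). Of 11 listed LXR target genes, all tested, 4 fell and 0 rose by edgeR, with 7 at an unadjusted p under 0.05. Those that fell are 36.4%, against 2.90% of all genes, and those at an unadjusted p under 0.05 are 63.6%, against 22.5%. The half-transporters Abcg5 and Abcg8, which together export sterols into bile, fell 2.89-fold and 2.56-fold (edgeR adjusted p = 0.00376 and 0.00365). Abcg5 measured 58.6, 54.5 and 62.2 CPM in Jag1Ndr/Ndr livers, against 185, 134 and 187 CPM in Jag1+/+ livers. Srebf1, a transcription factor of lipid synthesis, fell 3.02-fold, and the cholesterol exporter Abca1 fell 1.65-fold (edgeR adjusted p = 0.00925 and 0.0479). Abca1 lost its call without Jag1Ndr/Ndr replicate 3 or any Jag1+/+ library (edgeR adjusted p between 0.0920 and 0.177), when sex was a term, with library totals alone and on deposited RPKM values, and Abcg8 lost it on these values (limma adjusted p = 0.0578). Other LXR targets pointed upward, Pltp with 0.71 ± 0.20 and Abcg1 with 0.45 ± 0.14, neither past the threshold (edgeR adjusted p = 0.0670 and 0.101). The desaturase Scd1 spread from 32.9 to 375 CPM in Jag1Ndr/Ndr and from 26.4 to 52.7 CPM in Jag1+/+ livers.

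CAR (Nr1i3) and PXR (Nr1i2) sense drugs and bile acids and induce detoxifying enzymes. Nr1i3 measured 83.0, 49.7 and 36.5 CPM in Jag1Ndr/Ndr livers and 43.5, 60.6 and 47.0 CPM in Jag1+/+ livers. The genotypes overlapped, and the log2 fold change of 0.16 ± 0.29 turned to -0.23 without Jag1Ndr/Ndr replicate 1. Exons of Tomm40l on the other strand cover 74.9% of the exonic bases that GENCODE gives Nr1i3, so its level is uncertain. Nr1i2 averaged 57.0 ± 5.75 CPM in Jag1Ndr/Ndr and 64.4 ± 11.8 CPM in Jag1+/+ livers (log2 fold change -0.18 ± 0.17, 95% interval -0.57 to 0.22). Of 12 listed CAR and PXR target genes, 2 fell and 1 rose (16.7% and 8.33%, against 2.90% and 4.73% of all genes). Cyp2b10, the classical CAR target, measured 0.355, 0.154 and 0.320 CPM in Jag1Ndr/Ndr livers, against 7.24, 2.27 and 5.56 CPM in Jag1+/+ livers (edgeR adjusted p = 0.00548). The carboxylesterase Ces2a fell 2.60-fold, the glutathione transferase Gstm1 rose 3.63-fold (edgeR adjusted p = 0.00925 and 0.0343), and the classical PXR target Cyp3a11 stood at -0.39 ± 0.19 without passing (edgeR adjusted p = 0.272). Cyp2b10, Ces2a, Gstm1 and Cyp3a11 have close paralogs that can share reads. Gstm1 missed the threshold when sex was a term and without Jag1Ndr/Ndr replicate 1 or 3 or any Jag1+/+ library (edgeR adjusted p between 0.0528 and 0.135).

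The vitamin D receptor Vdr, which hepatocytes hardly express, had 0, 37 and 3 reads in Jag1Ndr/Ndr replicates 1, 2 and 3, and 2, 6 and 8 reads in Jag1+/+ replicates 1, 2 and 3. The 0 of Jag1Ndr/Ndr replicate 1 allows up to 0.266 CPM, above the level of each Jag1+/+ library (0.116 to 0.207 CPM), so no difference was detectable there. Its listed targets Cyp24a1 and Trpv6 had 0 or 1 read in each library and were not tested.

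Thyroid hormone receptors bind triiodothyronine, and THRB is the prevailing form in hepatocytes. In these whole livers, per transcript length, Thra RNA was the more abundant in each library. The RPKM ratio of Thrb to Thra was 0.393, 0.481 and 0.418 in Jag1Ndr/Ndr and 0.502, 0.551 and 0.683 in Jag1+/+ livers. Thrb measured 16.8, 23.9 and 21.0 CPM in Jag1Ndr/Ndr livers, against 27.6, 33.2 and 35.9 CPM in Jag1+/+ livers. The genotypes lay apart, but the log2 fold change of -0.64 ± 0.18 did not pass (edgeR adjusted p = 0.0694; 0.0256 by DESeq2; limma with quality weights, 0.0438). Thra measured 16.04, 18.6 and 18.8 CPM in Jag1Ndr/Ndr livers, against 20.6, 22.6 and 19.7 CPM in Jag1+/+ livers (log2 fold change -0.23 ± 0.15, edgeR adjusted p = 0.430, and 0.02 on deposited RPKM values with pseudocount 1). Of 5 listed thyroid hormone target genes none passed by edgeR, with 1 at an unadjusted p under 0.05 (20.0%, against 22.5% of all genes). That was the deiodinase Dio1, with 6.47, 23.7 and 67.5 CPM in Jag1Ndr/Ndr livers, against 109, 75.6 and 97.6 CPM in Jag1+/+ livers (edgeR adjusted p = 0.208).

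REV-ERB alpha and beta (Nr1d1 and Nr1d2) repress, and ROR alpha (Rora) activates, a shared set of circadian genes. None of the 3 differed detectably. Nr1d1 measured 17.6, 12.7 and 16.6 CPM in Jag1Ndr/Ndr and 9.67, 12.5 and 20.4 CPM in Jag1+/+ livers, spreading more within genotypes than between them (log2 fold change 0.13 ± 0.28, and -0.09 without Jag1+/+ replicate 1). Nr1d1 and Thra overlap tail to tail on opposite strands, by 8.55% of the exonic bases of Nr1d1, and shared reads cannot be assigned. Nr1d2 stood at 0.15 ± 0.25 on the log2 scale (-0.04 without Jag1Ndr/Ndr replicate 3), and Rora at -0.07 ± 0.17 (0.07 with library totals alone). Of 6 listed REV-ERB and ROR target genes 0 passed by edgeR, with 1 at an unadjusted p under 0.05, the clock repressor Cry1 (log2 fold change -0.58 ± 0.16, edgeR adjusted p = 0.0620). These are 0% and 16.7%, against 7.63% and 22.5% of all genes.

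Hnf4a measured 471, 382 and 495 CPM in Jag1Ndr/Ndr livers and 366, 409 and 500.3 CPM in Jag1+/+ livers. The genotypes overlapped over their whole range, with a log2 fold change of 0.08 ± 0.20 (95% interval -0.37 to 0.53, edgeR adjusted p = 0.865), which was -0.02 without Jag1+/+ replicate 1. Of 6 listed HNF4A target genes 1 passed, Ttr, a plasma carrier of thyroxine, which fell to 6161 ± 2119 CPM in Jag1Ndr/Ndr livers, against 15948 ± 774 CPM in Jag1+/+ livers (edgeR adjusted p = 0.0238). That is 16.7% of the list, where 7.63% of all genes passed. An unadjusted p under 0.05 by edgeR was reached by 1 (16.7%, against 22.5% of all genes). Ttr is also among the 8 hepatocyte markers, of which it and Cyp2e1 fell, and it lost its call without Jag1Ndr/Ndr replicate 3 or any Jag1+/+ library (edgeR adjusted p between 0.0697 and 0.104). Apob, Otc, Apoc3 and G6pc stood between -0.51 and 0.36 on the log2 scale.

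The remaining orphan receptors did not pass. Nr6a1, germ cell nuclear factor, measured 5.05, 4.99 and 6.29 CPM in Jag1Ndr/Ndr livers, against 9.09, 7.37 and 11.4 CPM in Jag1+/+ livers, apart but short of the threshold (log2 fold change -0.77 ± 0.23, edgeR adjusted p = 0.0827; 0.0314 by DESeq2). The COUP-TF receptors act mostly as repressors; Nr2f6 measured 72.1, 43.4 and 49.9 CPM in Jag1Ndr/Ndr and 64.0, 76.7 and 59.0 CPM in Jag1+/+ livers, overlapping (log2 fold change -0.28 ± 0.21). Nr2f2, typical of venous endothelium and mesenchyme, averaged 33.3 ± 5.63 CPM in Jag1Ndr/Ndr and 38.4 ± 3.86 CPM in Jag1+/+ livers, and Nr2f1 stayed at or below 2.01 CPM in each library (log2 fold change 0.07 ± 0.35, and -0.26 without Jag1Ndr/Ndr replicate 2). The testicular orphan receptor Nr2c1 measured 6.12, 10.96 and 15.8 CPM in Jag1Ndr/Ndr and 12.9, 12.95 and 10.3 CPM in Jag1+/+ livers. Its relative Nr2c2 was lowest in Jag1Ndr/Ndr replicate 1, with 3.37 CPM against 14.1 and 10.6 CPM in replicates 2 and 3, and 6.83 to 14.6 CPM in Jag1+/+ livers. Their log2 fold changes of -0.12 ± 0.31 and -0.25 ± 0.46 became 0.14 and 0.12 without Jag1Ndr/Ndr replicate 1. Exons of Ocel1 and Mrps25 on the other strand cover 54.4% and 30.7% of the exonic bases of Nr2f6 and Nr2c2 in GENCODE.

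The coefficient of variation was larger in Jag1Ndr/Ndr than in Jag1+/+ livers for 27 of 35 receptors (77.1%), close to the 76.3% of all genes tested. Its median over the receptors was 22.5% in Jag1Ndr/Ndr and 14.2% in Jag1+/+ livers, and over all genes 22.2% in Jag1Ndr/Ndr and 11.8% in Jag1+/+ livers. Jag1Ndr/Ndr replicate 1 held the lowest of the 3 Jag1Ndr/Ndr values for 15 receptors and the highest for 12, and replicate 3 held the highest for 17.

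Of 23 coregulators that receptors recruit, 14 coactivators and 9 corepressors, all were tested and 0 passed by edgeR, with 2 at an unadjusted p under 0.05. These are 0% and 8.70%, against 7.63% and 22.5% of all genes. DESeq2 called 1 and limma with quality weights 2, all higher. The coactivator Ncoa7 measured 6.20, 11.2 and 7.47 CPM in Jag1Ndr/Ndr livers, against 5.96, 4.84 and 4.005 CPM in Jag1+/+ livers (log2 fold change 0.77 ± 0.28, edgeR adjusted p = 0.138). Gps2, a subunit of a nuclear corepressor complex, measured 26.9, 23.1 and 24.0 CPM in Jag1Ndr/Ndr livers, against 19.1, 15.9 and 15.3 CPM in Jag1+/+ livers (log2 fold change 0.56 ± 0.16, edgeR adjusted p = 0.0709). Ppargc1a, which coactivates PPARA, HNF4A and the ERRs, stood at 0.58 ± 0.32, and the corepressor Ncor1 at -0.13 ± 0.21 on the log2 scale, with adjusted p-values of 0.337 and 0.772 by edgeR.

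Over all 80 listed target genes of the receptors, 75 could be tested, of which 10 fell and 5 rose by edgeR. These are 13.3% and 6.67% of those tested, against 2.90% and 4.73% of all genes, and the median log2 fold change was -0.17, against 0.0041 over all genes. An unadjusted p under 0.05 by edgeR was reached by 39 (52.0%, against 22.5% of all genes). Without Jag1+/+ replicates 1, 2 and 3, the number that rose was 0 in each case and the number that fell 7, 6 and 7. Without Jag1Ndr/Ndr replicate 1 the targets that rose numbered 3, and when sex was a term of the fit 2. Abcg5, Srebf1, Cyp2b10, Ces2a and Cyp26b1 kept their calls under all 15 alternatives tried.

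**Figure D5:**
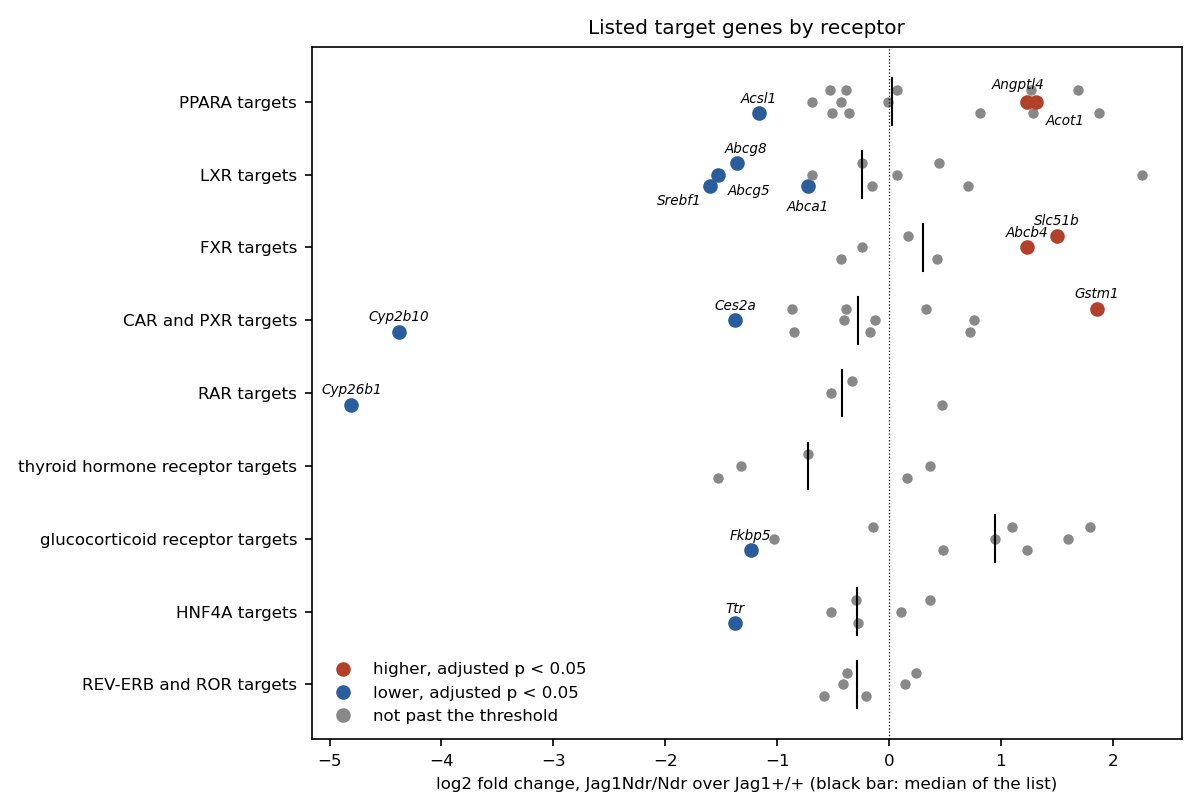
Log2 fold change, Jag1Ndr/Ndr over Jag1+/+, of each tested target gene, by receptor; each point is a gene, coloured where it passed the adjusted threshold, and black bars are list medians. LXR targets past the threshold all lie below 0, FXR targets past it lie above 0, and PPARA targets past it lie on both sides.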

How the data were processed

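Per the labels' protocols, polyadenylated RNA of liver was sequenced with a TruSeq kit that keeps no strand information. The deposited table holds raw read counts per gene entry and RPKM, which the authors scaled by 1 TMM factor per library, per the file headers. STAR and mm10 are named in the submitters' processing notes; no source used here names the read counter. Over 8230 genes with at least 100 reads in each library, 98.2% of the deposited RPKM lay within 5% of reads over library total multiplied by these factors, and 49.1% if divided. edgeR divides by its factors, so for levels the RPKM were divided by the header factor and by that of edgeR. The limma fits on deposited RPKM used the values without this rescaling.

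Counts of 13819 entries that passed filterByExpr were tested with edgeR 4.0.16 (R 4.3.3; TMM, quasi-likelihood test, two-sided, threshold 0.05) over all 6 libraries with no covariate. Each SE is the size of the log2 fold change divided by the square root of F. The 93 entries for spike-ins and eGFP, which held 5 reads, took no part. The members, lists and tests were chosen with earlier results of these data known. Named are all 37 receptors, with library values for those past the threshold, with an unadjusted p under 0.05 or most abundant in a subgroup, and up to 4 target genes or coregulators past the threshold per list; other genes of these lists were chosen after their values were seen. Alternatives were DESeq2 1.42.0, limma 3.58.1 on deposited RPKM (log2 of the value plus 1 or 0.1) and with quality weights, library totals, 2 other filters, sex (read from Xist and Y-linked genes), a replicate block and leaving out each library. The test script was checked on simulated counts. It called 28 of 100 planted 2-fold changes, 86 of 100 planted 4-fold changes and 5 of 13619 unchanged genes. A receptor that did not pass may therefore still differ, within its 95% interval. For some this interval lay inside a 2-fold change, as for Hnf4a (log2 fold change -0.37 to 0.53). For others it reached beyond, as for Esrrg (-2.71 to -0.50). Promoter sequences (GRCm38.p6) and gene positions are from RefSeq, and exon overlaps are from GENCODE on GRCm38. Limits from counts of 0 cover counting error only.
Some genes of the lists are not reported here.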

Additional observations from a re-analysis of the deposited data

How the results depend on the processing

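Of all genes, 653 were higher and 401 lower in Jag1Ndr/Ndr livers. Leaving out 1 library gave 155 to 679 higher and 127 to 532 lower, DESeq2 gave 1123 and 735, a sex term 366 and 230, and limma on deposited RPKM 388 and 101 (pseudocount 1) or 427 and 117 (pseudocount 0.1). Library totals alone gave 210 lower and quality weights 644. Higher genes were 62.0% of the calls, against 74.3% with library totals alone and 79.3% or 78.5% on deposited RPKM, which moved the median log2 fold change of all genes by 0.13, 0.21 and 0.22.

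Among receptors, 3 were lower: 7 by DESeq2, 1 with library totals alone, 5 with the replicate block, 1 with a sex term, 5 with quality weights, 0 and 0 on deposited RPKM, and 1 to 4 without 1 library. The 1 higher became 0 to 1 without 1 library. Coregulators higher were 0, but 1 by DESeq2 and 2 with quality weights. Targets higher were 5, but 12 by DESeq2, 8 with the replicate block, 2 with a sex term and 0 to 7 without 1 library. Targets lower were 10, but 6 and 6 on deposited RPKM and 6 to 12 without 1 library. The cause of these shifts was not tested. The fits on deposited RPKM used values that match reads multiplied by the header factors, whereas edgeR divides by its factors. These header factors were 0.796, 1.28 and 1.10 in Jag1Ndr/Ndr replicates 1, 2 and 3. In Jag1+/+ replicates 1, 2 and 3 they were 0.940, 0.952 and 0.952. Those fits thus scale the libraries in the other direction.

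In the check of pairing, same-numbered libraries correlated at 0.0856, 0.170 and 0.195, so that 1 pair lay under 0.1 and the numbers were not taken to pair the samples, although each library correlated best with its own number. The replicate block gave 843 higher and 587 lower genes, and the receptors it added were Thrb and Nr3c1 (edgeR adjusted p = 0.0356 and 0.0479).

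Log2 fold changes turned sign 48 times, in 19 of 53 genes, none of them past the threshold in the values reported. On deposited RPKM with pseudocount 1, the log2 fold change of Jag1 was 0.012, Thra 0.017, Rora 0.17, Nr1h3 0.17, Nr1i2 0.082, Rxra 0.14, Rxrb 0.15, Nr2c1 0.073, Nr2f2 0.032 and Nr5a2 0.039. On deposited RPKM with pseudocount 0.1, the log2 fold change of Thra was 0.0086, Rora 0.19, Nr1h3 0.17, Nr1i2 0.084, Rxra 0.14, Rxrb 0.15, Nr2c1 0.024, Nr2f2 0.024 and Nr5a2 0.011. With quality weights, the log2 fold change of Rarg was -0.026, Rora 0.038, Nr1i3 -0.25, Rxra 0.032, Nr2c1 0.054 and Nr0b2 -0.18. With library totals alone, the log2 fold change of Rora was 0.066, Nr1h3 0.025, Rxra 0.039, Rxrb 0.011 and Nr2c1 0.034. With a sex term, the log2 fold change of Nr1h3 was 0.023 and Nr2f1 -0.00090. Over the fits without 1 library, Nr1d1 ranged from -0.085 to 0.49, Nr1d2 from -0.038 to 0.41, Rora from -0.20 to 0.028, Nr1h3 from -0.26 to 0.071, Nr1i3 from -0.23 to 0.40, Hnf4a from -0.021 to 0.21, Rxra from -0.20 to 0.054, Nr2c1 from -0.47 to 0.14, Nr2c2 from -0.67 to 0.12, Nr2f1 from -0.26 to 0.30, Esrra from -0.039 to 0.49, Nr5a2 from -0.36 to 0.054 and Nr0b2 from -0.061 to 0.85.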
